A study of Homo sapiens with 2 samples.

Results

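Nuclear genes for the mitochondrial respiratory chain and ATP synthase were examined in HCT116 cells, a human colorectal carcinoma line labelled here as p53+/+. The genes were taken by symbol: those that begin NDUFA, NDUFB, NDUFC, NDUFS, NDUFV, UQCR, COX4 to COX8 or ATP5, with SDHA to SDHD and CYC1, and without 2 pseudogenes. This gave 92 of the 20045 genes with a named probe, on 127 probes. The array software gives each probe a detection p against negative controls, and a gene counted as detected if either array had a probe below 0.01. This held for 84 of the 92, among 10430 detected genes in all, and the brightest detected probe gave the gene's value, an intensity on a linear scale. Of the 84, 81 were detected on both arrays. One array came from cells treated with SB590885 at 10 nM, a compound known to inhibit RAF kinases, and 1 from cells given vehicle. Both cultures were grown in DMEM with serum and treated near confluence, and the labels give no length of treatment. With 1 array per condition no difference below has a replicate check, no p-value was computed for one, and every ratio compares these 2 arrays.

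The respiratory chain passes electrons from NADH and succinate to oxygen and pumps protons across the inner mitochondrial membrane. Complex I oxidises NADH and complex II oxidises succinate, both handing electrons to ubiquinone. Complex III passes them on to cytochrome c, complex IV reduces oxygen with them, and ATP synthase uses the proton gradient to make ATP. Apart from complex II, which is wholly nuclear-encoded, the complexes combine subunits made from mitochondrial DNA with a larger number made from nuclear genes. The nuclear genes are known to share promoter elements for NRF1, for GABP and other ETS factors, for SP1 and for YY1. Transcripts of mitochondrial DNA were not analysed here.

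Detection was reached by 16694 of 47318 probes after SB590885 and by 15944 with vehicle. As a check on the cell type, 6 of 8 genes of colon epithelium were detected, with 1 higher and 5 lower after SB590885. VIL1 and CEACAM5 were not detected on either array. EPCAM had an intensity of 6439 after SB590885 and 4420 with vehicle by its brightest probe, a log2 ratio of 0.54, but its other probes gave -0.12 to 0.11, and the other detected genes lay between -0.22 (KRT8) and -0.01 (CDH1). None of 3 endothelial and none of 3 muscle markers with a probe was detected, nor were PTPRC, CD3E and CD14 of the leukocytes. Of 5 stromal markers 3 reached detection, at intensities no higher than 170.7, and of 5 leukocyte markers CD68 did.

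The letters upstream of several genes bear on what the members share beyond their names. RefSeq promoter windows of GRCh38.p14, running from 250 bases before to 50 after a gene's start, were matched for 76 of the 92 genes and 70 of the 84 detected ones. The 6 windows below, read 5′ to 3′, belong to the 2 highest members detected on both arrays (NDUFA6 and NDUFA9), to the lowest member in the deposited values (SDHD; NDUFS1 and ATP5MC3 lie below it after background correction), to COX5B, which holds several motifs, and to an isoform pair of which one was detected on the SB590885 array only (COX7B2 and COX7B). Capitals mark exact matches to an NRF1 core (GCATGCGC), an ETS site of the GABP kind (CCGGAAGT) or a YY1 site (AAGATGGC) on either strand.
NDUFA6 (chr22:42090723-42091022, minus strand): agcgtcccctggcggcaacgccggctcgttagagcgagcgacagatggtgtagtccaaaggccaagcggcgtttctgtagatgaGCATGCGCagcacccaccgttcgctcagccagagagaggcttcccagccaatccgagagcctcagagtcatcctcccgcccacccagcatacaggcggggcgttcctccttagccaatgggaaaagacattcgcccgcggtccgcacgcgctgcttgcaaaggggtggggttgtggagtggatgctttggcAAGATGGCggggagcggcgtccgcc
NDUFA9 (chr12:4648864-4649163, plus strand): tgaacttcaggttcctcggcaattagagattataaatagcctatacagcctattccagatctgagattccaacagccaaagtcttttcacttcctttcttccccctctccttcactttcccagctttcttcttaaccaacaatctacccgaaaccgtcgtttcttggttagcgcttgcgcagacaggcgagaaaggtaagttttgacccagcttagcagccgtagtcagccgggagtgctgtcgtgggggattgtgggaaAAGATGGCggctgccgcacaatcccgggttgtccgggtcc
SDHD (chr11:112086623-112086922, plus strand): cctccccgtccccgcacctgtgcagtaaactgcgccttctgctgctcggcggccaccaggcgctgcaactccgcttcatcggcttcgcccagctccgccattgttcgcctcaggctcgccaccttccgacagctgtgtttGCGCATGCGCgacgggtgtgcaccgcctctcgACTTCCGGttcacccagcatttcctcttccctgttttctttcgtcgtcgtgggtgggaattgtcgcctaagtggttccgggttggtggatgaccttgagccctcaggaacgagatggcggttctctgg
COX5B (chr2:97645812-97646111, plus strand): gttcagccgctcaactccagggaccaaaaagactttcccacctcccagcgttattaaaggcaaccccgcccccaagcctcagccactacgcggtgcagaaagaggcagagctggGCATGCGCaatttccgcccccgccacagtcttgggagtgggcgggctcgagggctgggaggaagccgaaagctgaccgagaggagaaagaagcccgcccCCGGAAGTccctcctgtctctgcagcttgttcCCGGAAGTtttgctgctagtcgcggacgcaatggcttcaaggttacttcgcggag
COX7B2 (chr4:46909196-46909495, minus strand): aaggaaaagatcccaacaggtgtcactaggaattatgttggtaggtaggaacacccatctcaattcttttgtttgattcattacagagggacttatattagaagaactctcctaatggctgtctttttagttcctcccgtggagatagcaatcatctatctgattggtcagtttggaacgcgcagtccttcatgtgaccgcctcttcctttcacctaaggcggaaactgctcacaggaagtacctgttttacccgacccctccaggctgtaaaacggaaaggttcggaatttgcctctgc
COX7B (chrX:77899218-77899517, plus strand): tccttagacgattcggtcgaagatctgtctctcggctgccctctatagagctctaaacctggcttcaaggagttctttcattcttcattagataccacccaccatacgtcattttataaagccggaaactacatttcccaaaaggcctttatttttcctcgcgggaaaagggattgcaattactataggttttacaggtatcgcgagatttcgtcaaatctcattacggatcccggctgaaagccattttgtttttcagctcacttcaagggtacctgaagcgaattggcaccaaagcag

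In these windows, with the gene's start base counted as position 0 and a match placed by its leftmost base, NDUFA6 held the NRF1 core at -166 and a YY1 match at 25, downstream of the start. NDUFA9 held a YY1 match at 10. SDHD held overlapping NRF1 cores on both strands, at -110 and -108, which together make the full palindrome, and an ETS match at -78. COX5B held an NRF1 core at -136 and ETS matches at -37 and -5. The windows of COX7B2 and COX7B held none of these letters, and both had a low share of G and C, at 45.3% for COX7B2 and 44.0% for COX7B.

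Counting a gene once if any of its windows matched, the NRF1 core was found in 14 of the 70 detected members (20.0%), against 6.81% of 8426 detected genes and 3.68% of all 27305 genes in the table. The ETS letters were found in 12 members (17.1%), against 10.6% of detected genes and 4.95% of all. YY1 letters were found in 12 members (17.1%), against 6.87% and 3.52%. For the SP1 letters GGGCGG members lay below detected genes, with 62.9% against 77.8%, though still above the 48.3% of all genes. The windows of detected members were also less rich in G and C than those of detected genes in general, with medians of 60.2% and 65.0%. These shares describe letters in fixed windows and are not binding sites. By complex, 9 of 13 ATP synthase genes with a window (69.2%) held at least 1 of the NRF1, ETS and YY1 matches, as did 4 of 6 complex III genes, 12 of 30 complex I genes and 3 of 10 complex IV genes. Set against the array, the 32 members with any of the 3 matches had a median log2 ratio of 0.02, and the 38 without had 0.03. The 14 genes with an NRF1 core had a median of 0.01 and ran from SDHD (-0.42) to NDUFA6 (0.60), while the 12 with ETS letters had -0.10.

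As a group the members were split evenly. After SB590885, 42 of the 84 detected genes were higher and 42 lower, where 50.1% of all detected genes were lower. The median log2 ratio was -0.00016, against -0.00082 over all detected genes. At least 1.5-fold higher were 2 members, COX7B2 and NDUFA6, where 1.51% of all detected genes were. At least 1.5-fold lower were 0 members, where 1.16% of all detected genes were. The deposited values still hold background, which shrinks the ratios of dim genes, so they were also background-corrected with limma's neqc, at an offset of 16 unless another is named. After that correction 3 members (COX7B2, NDUFA6 and NDUFA9) were at least 1.5-fold higher and 2 (NDUFS1 and ATP5MC3) at least 1.5-fold lower, which became 2 and 0 at an offset of 50, and the shares over all detected genes at an offset of 16 were 5.16% and 4.62%. These counts are small and lie near the background. The members' log2 ratios had an SD of 0.284, or 0.273 with genes detected on 1 array taken at their bounds, and those of all detected genes 0.244. Both member SDs include COX7B2, at 1.55 or at its bound of 1.37, where the next highest member, NDUFA6, was at 0.60. Among the 54 members with a mean intensity of 1000 or more the SD was 0.210 and the median -0.02, beside 0.269 and -0.04 for all 1478 genes that bright. The genes of the mitochondrial ribosome, the other large nuclear-encoded machine of the organelle, gave a median of -0.03 over 77 detected genes, with 36 higher and 41 lower. No test of a difference between these sets was possible with 1 array per condition.

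**Figure D1:**
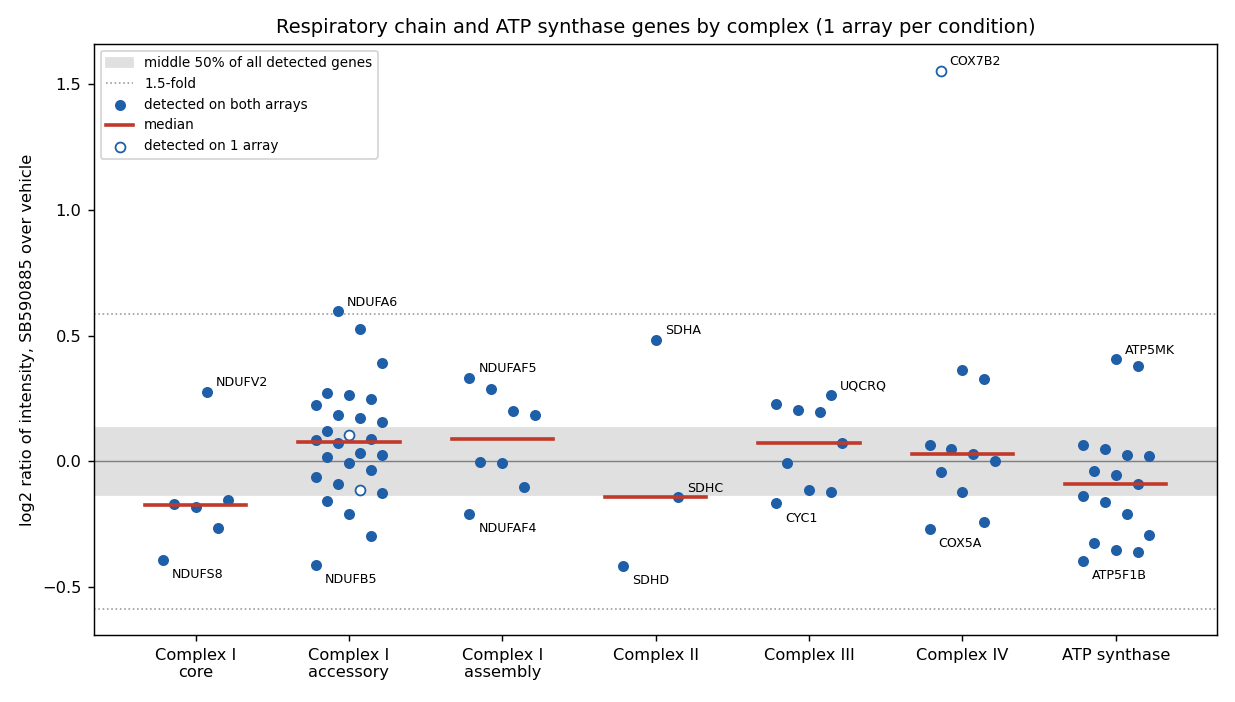
Log2 ratio of intensity, SB590885 over vehicle, for detected members grouped by complex (without COX7A2L and ATP5IF1), with complex I divided into core subunits, accessory subunits and assembly factors; each point is 1 gene (open where detected on 1 array), red lines are medians, the grey band holds the middle 50% of all detected genes and dotted lines mark 1.5-fold. COX7B2, detected on the SB590885 array only, is highest, drawn at its measured ratio of 1.55 with a bound of 1.37, and the next highest is NDUFA6 at 0.60.

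Within complex I the catalytic core and the accessory subunits differed in which way most members lay. Of 6 core subunits measured, 5 were lower after SB590885 and the median log2 ratio was -0.17, whereas 18 of 28 detected accessory subunits were higher and their median was 0.08. The core subunits carry the flavin and the iron-sulfur clusters, and the accessory subunits surround them and serve assembly and stability. NDUFS8, which holds 2 iron-sulfur clusters near the quinone site, had an intensity of 2705 on the SB590885 array and 3552 on the vehicle array, which is 1.31-fold lower. NDUFV1, which binds NADH and the flavin, had 705.2 after SB590885 and 798.8 with vehicle (log2 ratio -0.18). NDUFS3 was at 2742 after SB590885 and 3081 with vehicle (-0.17), and NDUFS7 at 891.4 and 992.5 in the same order (-0.15). NDUFS1, the largest subunit of the core, was dim, at 139.0 after SB590885 and 167.1 with vehicle. Its log2 ratio of -0.27 became -0.74 with background correction, 1.67-fold lower. The exception was NDUFV2, a partner of NDUFV1, at 2847 after SB590885 and 2350.5 with vehicle, 1.21-fold higher. Each of these 6 genes had 1 detected probe, so none had a repeat measurement within the array.

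In the deposited values accessory subunits gave both the highest and the lowest ratios of complex I, whereas with background correction the core subunit NDUFS1 was lowest. NDUFA6, a small LYR-motif subunit that docks the acyl carrier protein onto the complex, had 679.7 on the SB590885 array and 449.2 on the vehicle array, 1.51-fold higher and 1.65-fold with background correction. NDUFA9, which lies beside the quinone-binding region, had 854.8 after SB590885 and 593.9 with vehicle, 1.44-fold higher and 1.53-fold corrected. NDUFB11, a membrane-arm subunit encoded on the X chromosome, was at 1666 after SB590885 and 1271 with vehicle (1.31-fold higher). NDUFB9, NDUFA8 and NDUFB10 of the same arm were 1.21-fold, 1.20-fold and 1.19-fold higher. The acyl carrier protein NDUFAB1, the partner of NDUFA6, was 1.09-fold higher. At the other end NDUFB5, also in the membrane arm, had 2702 after SB590885 and 3595 with vehicle, 1.33-fold lower. NDUFA1, a single-pass membrane subunit, had 4619 after SB590885 and 5677 with vehicle (-0.30). NDUFB3 followed with -0.21 and NDUFA11 with -0.16. NDUFS4, an accessory subunit of the NADH-oxidising tip, was nearly equal, at 2423 after SB590885 and 2432 with vehicle. The other accessory subunits detected on both arrays lay between -0.13 for NDUFS5 and 0.22 for NDUFA2.

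A few accessory subunits sat at the limit of detection. NDUFB4 was detected on the SB590885 array only, at 141.1, against 131.2 on the vehicle array, so that it was at least 1.07-fold higher. NDUFC2 was detected on the vehicle array only, with 125.0 after SB590885 and 135.2 with vehicle, at least 1.04-fold lower. Here and below such bounds are taken against the lowest detected intensity of the other array, 132.2 for vehicle and 129.8 for SB590885. NDUFB1 and NDUFS6 were not detected on either array by their only probe, nor was the antisense RNA NDUFB2-AS1.

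Factors that build complex I but are not part of the finished enzyme also carry NDUF names. All 8 were detected, 4 higher and 4 lower, with a median of 0.09. NDUFAF5, which modifies an arginine of a core subunit, had 464.9 after SB590885 and 369.0 with vehicle, 1.26-fold higher, and its other detected probe gave 0.48 on the log2 scale. NDUFAF2, a chaperone of late assembly, was at 1063 after SB590885 and 871.3 with vehicle (1.22-fold higher). NDUFAF4 was lowest, at 692.6 after SB590885 and 799.8 with vehicle (-0.21), and NDUFAF1 and NDUFAF6 had ratios of -0.01 and -0.003.

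Complex II had 3 genes with a named probe, SDHB not among them, and these lay well on both sides. SDHA, the flavoprotein that oxidises succinate, had 1037 on the SB590885 array and 742.0 on the vehicle array, 1.40-fold higher, and its other probe gave a log2 ratio of 0.43. SDHD, one of the membrane anchors, had 767.3 after SB590885 and 1024 with vehicle, 1.33-fold lower, by its only probe. SDHC, the other anchor, had 631.9 after SB590885 and 696.9 with vehicle (-0.14), with -0.01 by its other probe. With background correction the log2 ratios were 0.54 for SDHA, -0.47 for SDHD and -0.17 for SDHC, so the 3 genes kept their directions and none passed 1.5-fold.

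All 9 complex III genes with a named probe were detected and none passed 1.5-fold, with 5 higher, 4 lower and a median of 0.07. UQCRFS1, the iron-sulfur subunit, was not among them. UQCRQ, a small subunit of the membrane part, was highest, at 6165 after SB590885 and 5137 with vehicle (1.20-fold). UQCR11, another small subunit, was at 328.2 after SB590885 and 280.6 with vehicle (1.17-fold). CYC1, the haem-bearing cytochrome c1, was lowest, at 3868 after SB590885 and 4343 with vehicle (-0.17). The 2 large core proteins were close to their vehicle levels, with UQCRC1 at 0.07 and UQCRC2 at -0.01, and UQCRB, which lies at the quinone site, had -0.12. The hinge protein UQCRH had 8404 after SB590885 and 9105 with vehicle (-0.12), while its other probe gave 0.40. UQCRHL, a near-identical copy of UQCRH, had 7216 after SB590885 and 6257 with vehicle (0.21). Their probes may bind both transcripts, so the direction of either gene is uncertain. UQCR10 had 0.20 by its brightest probe, and its 2 other probes gave -0.12 and -0.35.

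Complex IV showed its ubiquitous subunits on both arrays and almost none of its tissue-restricted forms. The 10 ubiquitous subunits were all detected, 6 higher and 4 lower, with a median of 0.02 and a range from -0.27 to 0.36. COX7B was highest among them, at 2489 after SB590885 and 1933 with vehicle (1.29-fold). COX5B, a zinc-binding matrix-side subunit, was at 4757 after SB590885 and 3791 with vehicle (1.25-fold). COX5A, which binds next to COX4 on the matrix side, was lowest, at 4140 after SB590885 and 4991 with vehicle (1.21-fold lower). COX4I1, the common form of COX4 and a site of regulation by ATP, had 7746 after SB590885 and 9161 with vehicle (-0.24). COX8A had -0.12 and COX6B1 -0.04. COX6A1, COX7A2, COX6C and COX7C lay between 0.003 and 0.07. COX7A2L, a related protein that links complexes III and IV into supercomplexes, had -0.06.

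Of 6 forms known from particular tissues, 5 were not detected on either array: COX6A2 and COX7A1 of heart and skeletal muscle, COX4I2, which is induced in lung and by low oxygen, COX6B2 of testis, and COX8C. The exception was COX7B2, the testis form of COX7B. Its only probe, ILMN_1674658, gave 340.7 after SB590885 with a detection p of 0, against 116.1 with vehicle and a detection p of 0.295, above the detection limit. On the deposited scale this was at least 2.58-fold higher, and at least 6.95-fold with background correction at an offset of 16. The size depends on the offset: at 50 the log2 ratio to the undetected vehicle value was 2.30, against 3.44 at 16. COX7B, its ubiquitous counterpart, was 1.29-fold higher over the same arrays. In the RefSeq gene order of chromosome 4, the closest genes with a named probe on either side, GABRA2 and GABRA4, were not detected, and the nearest detected genes, GNPDA2 before it and COMMD8 after it, had log2 ratios of 0.22 and -0.20.

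**Figure D2:**
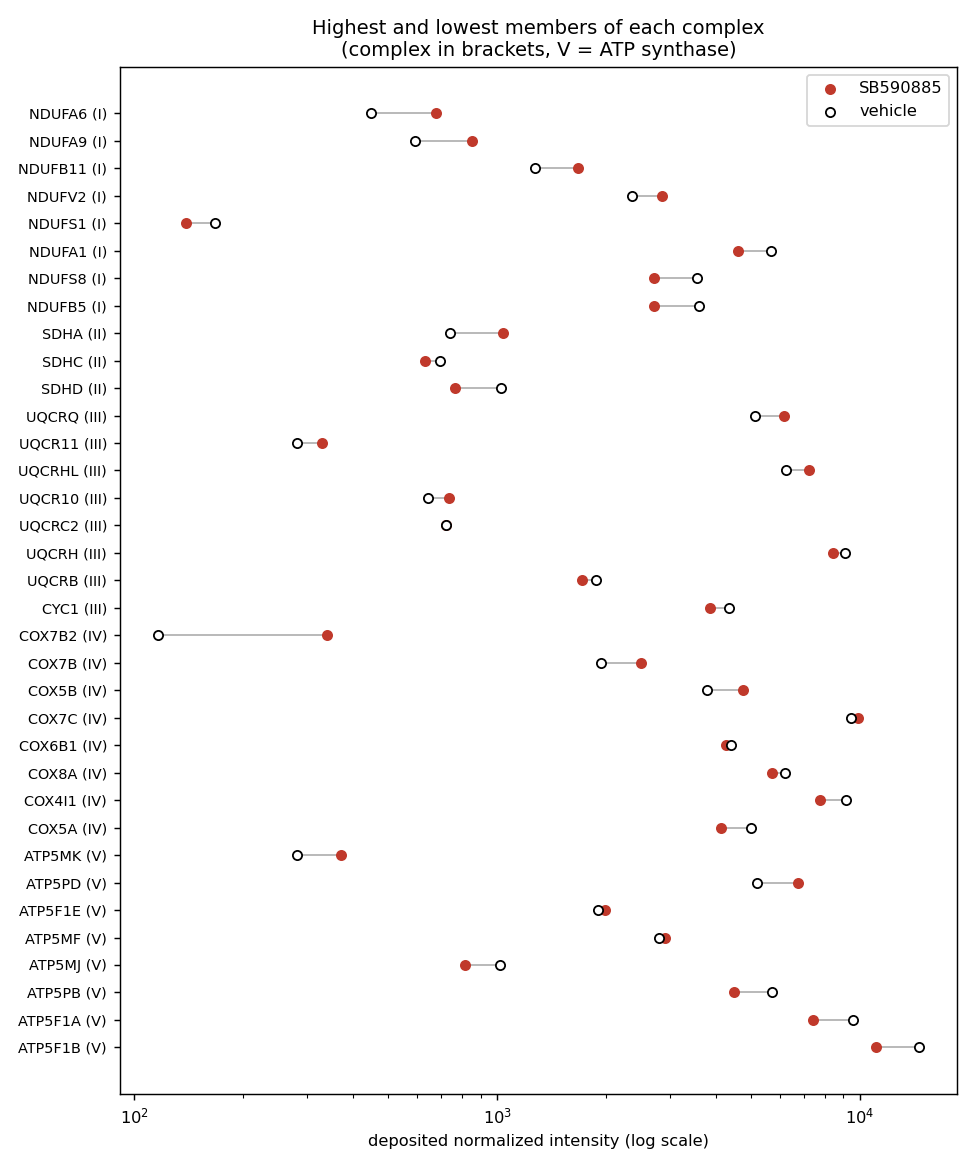
Deposited normalized intensity on a log axis for the 4 highest and 4 lowest members of complexes I, III and IV and ATP synthase (V) and all 3 of complex II; filled red points are the SB590885 array and open points the vehicle array, 1 array each. The pair for COX7B2 is the farthest apart, at 340.7 and 116.1, and the points of UQCRC2 overlie each other.

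All 17 ATP synthase subunits were detected, of which 11 were lower and 6 higher, where 56.6% of all detected genes with a mean intensity of 1000 or more were lower, and the median log2 ratio was -0.09, with none past 1.5-fold in the deposited values. The F1 head, where ATP is made, had 4 of 5 subunits lower. ATP5F1B, the catalytic beta subunit, had 11076 on the SB590885 array and 14568 on the vehicle array, 1.32-fold lower. ATP5F1A, the alpha subunit that alternates with beta in the head, had 7437 after SB590885 and 9554 with vehicle, 1.28-fold lower, and its other probe gave -0.20. The central stalk subunits ATP5F1C (gamma) and ATP5F1D (delta) had -0.09 and -0.14, and the other probe of ATP5F1D gave 0.36. ATP5F1E (epsilon) was at 0.06.

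The peripheral stalk, which holds the head still, had members on both sides. ATP5PB, its long b subunit, had 4492 after SB590885 and 5732 with vehicle, 1.28-fold lower, and its other probe was lower still, at -0.54. ATP5PD, the d subunit, was on the other side, with 6753 after SB590885 and 5195 with vehicle, 1.30-fold higher, and 0.13 by its other probe. ATP5PF had -0.21 by its brightest probe, and its 2 other probes gave -0.20 and 0.21. ATP5PO, which joins the stalk to the head, had -0.04.

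The rotor ring is built from 1 protein, subunit c, made from 3 genes with different import sequences. ATP5MC1 had 2060.5 after SB590885 and 2025 with vehicle (0.03), and ATP5MC2 had 2926 after SB590885 and 3275 with vehicle (-0.16). ATP5MC3 was dim, at 155.4 after SB590885 and 190.6 with vehicle (-0.29), which became 1.61-fold lower with background correction. Among the small membrane subunits, ATP5MK, which helps ATP synthase dimers to form, had 371.3 after SB590885 and 280.2 with vehicle, 1.32-fold higher, and ATP5MJ had 814.6 after SB590885 and 1019 with vehicle, 1.25-fold lower. ATP5ME, ATP5MF and ATP5MG had 0.02, 0.05 and -0.06 by their brightest probes. Their other detected probes gave 0.86, -0.004 and -0.45 in the same order. The inhibitor ATP5IF1, which blocks ATP hydrolysis by the enzyme, had 937.1 after SB590885 and 1006 with vehicle (-0.10), and 0.11 by its other probe.

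Different probes for 1 gene are the only repeated measurement on these arrays. Of 22 members with several detected probes, 13 had all probes on the same side (59.1%), and 60.4% of all 2631 such genes did. The median gap between a member's highest and lowest probe was 0.19 on the log2 scale, beside a median absolute ratio of 0.16 for the 84 members. The typical member's ratio was thus no larger than the typical gap between probes of 1 gene. The widest gap was that of ATP5ME, whose brightest probe gave 0.02 (5329 after SB590885, 5257 with vehicle) and whose dimmer probe gave 0.86 (1043 after SB590885, 575.9 with vehicle). UQCR10 and UQCRH followed, with gaps of 0.55 and 0.51 across 0. Members whose detected probes all lay on the same side by more than 0.1 were SDHA, NDUFAF5 and ATP5PD, all higher, and ATP5F1A and ATP5PB, both lower.

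**Figure D3:**
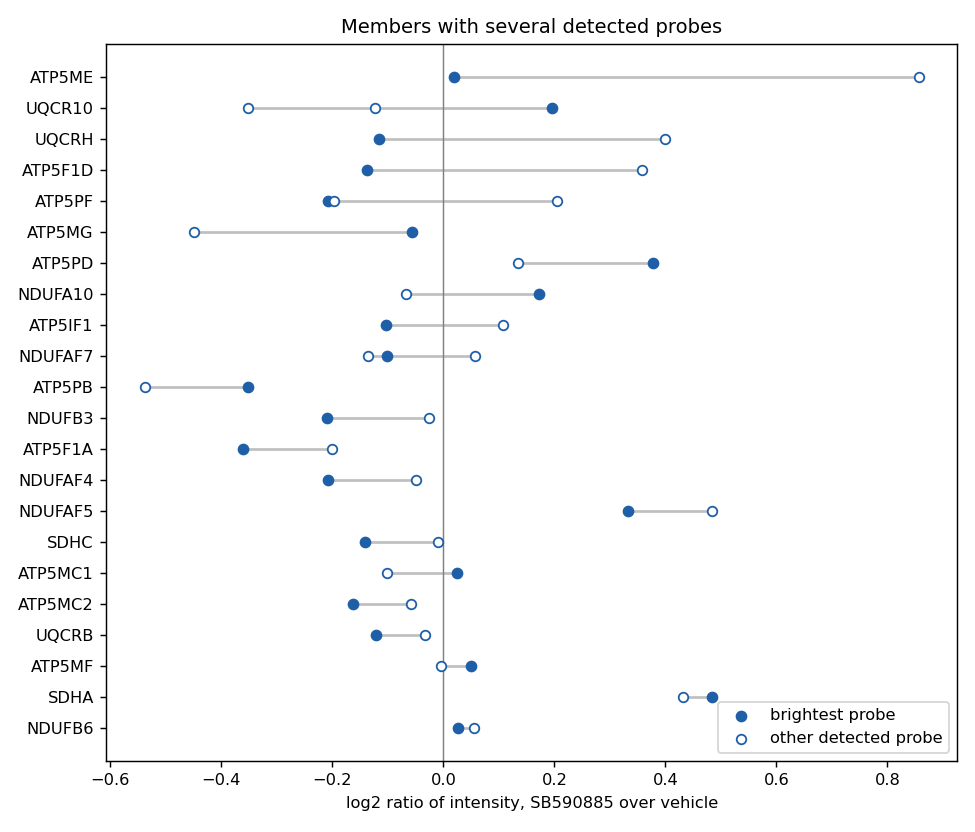
Log2 ratio of intensity, SB590885 over vehicle, for each detected probe of the 22 members with several, 1 gene per line in order of the gap; filled points are the brightest probe and open points the others. Of the 22 genes, 9 have probes on both sides of 0, and SDHA shows a gap of 0.05 with both probes high.

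Other genes of oxidative metabolism were examined as lists, to be read beside the 50.1% of all detected genes that were lower. Of 38 detected assembly factors outside the naming rule, 23 were higher and 15 lower, with a median of 0.08 and none past 1.5-fold as deposited. PET100, which helps to assemble complex IV, was at 2170 after SB590885 and 1489.5 with vehicle (1.46-fold higher). UQCC2, a complex III factor, was at 1379 after SB590885 and 987.4 with vehicle (1.40-fold higher). TMEM126B of complex I assembly had -0.49, with -0.21 by its other probe, and ATPAF1 of ATP synthase assembly -0.44, with 0.01 by its other probe. With background correction TMEM70, an assembly factor of ATP synthase, was 1.55-fold higher by its brightest probe, while its other probe gave a deposited log2 ratio of -0.13. CYCS, cytochrome c itself, had 194.9 after SB590885 and 166.9 with vehicle (0.22). Of 16 tricarboxylic acid cycle and pyruvate dehydrogenase genes, 10 were lower, with a median of -0.09. DLD, the dehydrogenase shared by several 2-oxoacid complexes, had 656.1 after SB590885 and 959.3 with vehicle (-0.55). IDH3A, a subunit of the NAD-linked isocitrate dehydrogenase, had -0.42, and OGDH had 244.0 after SB590885 and 177.3 with vehicle (0.46). With background correction DLD was 1.54-fold lower and OGDH 1.83-fold higher.

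Regulators of nuclear respiratory genes had a median of -0.12, with 7 of 13 detected genes lower. Both subunits of GABP, the ETS factor whose letters were searched above, were among the lower ones. GABPA, the DNA-binding subunit, had 140.0 on the SB590885 array and 196.4 on the vehicle array (-0.49), and GABPB1, its activating partner, had 233.8 after SB590885 and 317.3 with vehicle (-0.44, and -0.28 by its other probe). With background correction they were 2.32-fold and 1.61-fold lower. The GABPA value after SB590885 lay near the lowest detected intensity of that array, 129.8, and the gene had no other detected probe. POLG, the polymerase of mitochondrial DNA, had 306.8 after SB590885 and 449.9 with vehicle (-0.55, 1.68-fold lower corrected). TFAM, which packages that DNA, had -0.27, and the transcription factor TFB2M was highest at 0.26, with -0.02 by its other probe. NRF1 and the coactivators PPARGC1A and PPARGC1B were not detected on either array.

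Of carriers and quinone genes 14 of 18 were lower, where 50.1% of all detected genes were, and their median was -0.15. SLC25A4, an ADP/ATP carrier, had 1498 on the SB590885 array and 2910 on the vehicle array, 1.94-fold lower, and its other probe was lower by less, at -0.29. SLC25A5, a second ADP/ATP carrier, had 9821 after SB590885 and 12941 with vehicle (-0.40). COQ5, a methyltransferase of ubiquinone synthesis, had -0.50. DHODH, the pyrimidine enzyme that feeds electrons to ubiquinone, was highest, at 170.3 after SB590885 and 137.0 with vehicle (0.31, 1.84-fold with background correction). Its vehicle value lay near the lowest detected intensity of that array, 132.2. Of 15 cristae and inner membrane genes 10 were higher, with a median of 0.14. OPA1, the fusion GTPase of the inner membrane, had 0.34 and the cristae-junction protein MICOS13 had 0.33, while the cardiolipin synthase CRLS1 had -0.37. HIGD1A had -0.25, with its other probes between 0.02 and 0.34.

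**Figure D4:**
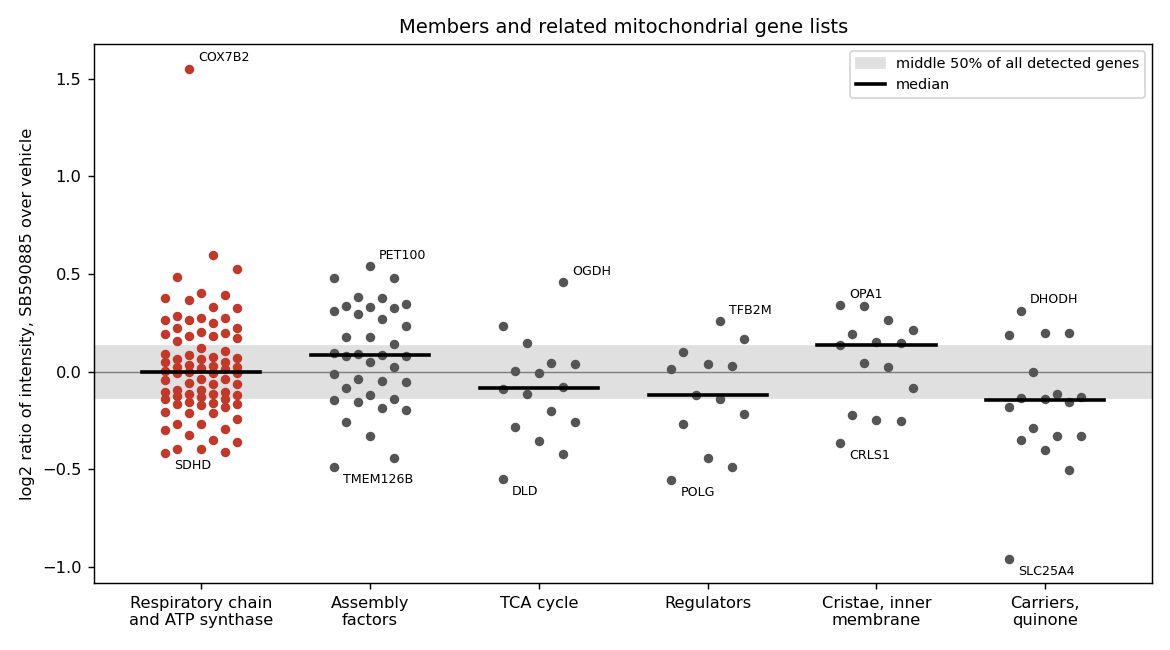
Log2 ratio of intensity, SB590885 over vehicle, for the 84 respiratory chain and ATP synthase genes (red) and 5 related lists (grey), 1 point per detected gene, black lines at medians and a grey band over the middle 50% of all detected genes. The medians run from -0.15 for carriers and quinone genes to 0.14 for cristae genes, and SLC25A4 is the lowest point at -0.96.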

How the data were processed

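RNA of HCT116 cells was amplified with the Ambion MessageAmp kit and measured on Illumina bead arrays, per the labels' protocols, with 1 array per condition. The authors deposited normalized intensities on a linear scale and a detection p-value for each of 47318 probes; the sources used here do not name the software or the normalization. The deposited series matrix holds the same intensities, with a largest difference of 0. A second deposited table, labelled non-normalized, was not used. Its vehicle intensities were a median of 1.025 times those used here, and its SB590885 intensities were not compared. Background was left in the values (lowest intensity 90.7), which shrinks ratios of dim genes. The arrays' number limits the precision.

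Probes were named through the platform annotation (30111 with 1 gene), with symbols, biotypes and chromosomes from RefSeq. Log2 ratios, SB590885 over vehicle, were taken for each gene's brightest detected probe with Python 3.11.15. A gene detected on 1 array was counted by its bound. Limma 3.58.1 in R 4.3.3 gave the background-corrected alternative (neqc, offset 16). The size rule of 1.5-fold was also run on simulated data. With 1 array per condition, that run cannot show how many genes pass the rule through array noise. Genes named are the extremes of each complex and list, members past 1.5-fold or detected on 1 array, and isoform families. Members, lists and motifs were chosen with earlier results of these data known. The neighbours of COX7B2, the tally by chromosome and the promoters to print were picked after values were seen. Alternatives changed the correction, normalization, detection filter, probe rule, membership and size rule.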

Additional observations from a re-analysis of the deposited data

How the results depend on the processing

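The members' median log2 ratio, their number lower and the medians of all 5 complexes moved by less than 0.1, or by less than 1.5 times for the count, under each alternative run. Background correction with offset 16 gave 2 members at least 1.5-fold lower, against 0 as deposited, and median centring in place of quantile normalization also gave 2, but offset 50 gave 0, with log2 ratios of -0.46 for NDUFS1 and -0.47 for ATP5MC3. Detection on both arrays left 1 member at least 1.5-fold higher, since COX7B2 then drops out, where 150 of all genes so detected were. The 2-fold rule also left 1 member higher, COX7B2, where 26 of all 10430 detected genes were. At least 2-fold lower were 0 members and 14 of all detected genes. Over all detected genes the counts at least 1.5-fold higher and lower were 157 and 121 as deposited, 538 and 482 with offset 16, 303 and 241 with offset 50, and 513 and 508 with median centring. Of 84 single genes, 11 moved by 0.1 or more with offset 16 and none changed sign; median centring changed the sign of COX6A1, whose deposited ratio was 0.003. Other probes of the same gene moved the value by 0.1 or more in 19 of 25 cases. No paired analysis was possible because each condition had 1 array. Signal over background limits the dim members NDUFS1, ATP5MC3, NDUFA5 and NDUFB4.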

Other observations

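By chromosome, a tally made after the values were seen, the 7 detected members on chromosome 11 were all lower after SB590885, with a median log2 ratio of -0.17, while 48.1% of the 615 detected genes on that chromosome were lower and their median was 0.01. They are SDHD, NDUFS8, NDUFV1, NDUFS3, COX8A, NDUFC2 and ATP5MG, which belong to 4 different complexes, and NDUFC2 was detected on the vehicle array only. On chromosome 5, 5 of 6 members were higher, with a median of 0.24, beside 52.0% of all detected genes there that were lower. On chromosome 13, where 63.4% of 175 detected genes were lower, there were 0 detected members. No test was made of these tallies, which were picked from all chromosomes for their counts.

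Probes assigned to the 2 pseudogenes left out were bright on both arrays. UQCRBP1 had 5219 on the SB590885 array and 5817 on the vehicle array (log2 ratio -0.16), close to the -0.12 of its parent gene UQCRB. ATP5F1EP2 had 10694 after SB590885 and 10492 with vehicle by one probe (0.03) and 0.10 by the other, beside 0.06 for ATP5F1E. Whether these probes read the pseudogenes or their parents was not tested.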
